A study of Triticum aestivum with 96 samples.

Results

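Expression of a Bowman-Birk trypsin inhibitor and an amylase inhibitor-like transcript was followed in wheat crowns through a time series of cold treatment. They were read by 2 of the 61179 probesets on the Affymetrix Wheat GeneChip that are not controls, Ta.20928.1.S1_at for the trypsin inhibitor and Ta.12704.1.S1_at for the amylase inhibitor-like transcript. Both were chosen by name with their expression profiles already known, and both stand on the study's list of genes whose response to duration differed among lines. Their levels and differences are therefore given as a description, without a test, and tests are kept for related inhibitors. Seedlings at the 3-leaf stage were moved to 6 °C, and crowns were taken at 8 durations, at 0 and 2 days, at 14 and 21 days, at 35 and 42 days, and at 56 and 70 days. The lines were winter Norstar (vrn-A1), spring Norstar (Vrn-A1), winter Manitou (vrn-A1) and spring Manitou (Vrn-A1). Winter Norstar and spring Manitou were the parent cultivars, and spring Norstar and winter Manitou were near isogenic lines in which the Vrn-A1 region, which sets winter or spring habit, had been swapped by repeated backcrossing. With 3 samples for each line and duration, every sample a pool of crowns on an array of its own, there were 32 groups and 96 arrays. No plants were kept warm over the same days, so that duration of cold and plant age cannot be told apart, and because whole crowns were extracted, fewer expressing cells and less transcript per cell cannot be told apart.

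Bowman-Birk inhibitors are small proteins, rich in cysteine, whose exposed loops sit in the active site of trypsin and related serine proteases and block it. In cereals they are known from the grain, and in maize and rice also from wounded leaves. Inhibitors of alpha-amylase block starch-digesting enzymes, including those of insects that feed on the plant. Plant defensins are also small proteins rich in cysteine, most of them known for action against fungi, and some of them inhibit insect amylase. The crown is the base of the shoot, which holds the shoot apical meristem and from which the plant regrows after winter.

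The study's annotation matched Ta.20928.1.S1_at to a barley Bowman-Birk type trypsin inhibitor and to a rice gene of the same family. It matched Ta.12704.1.S1_at to a wheat protein described as amylase inhibitor-like, while the best rice match was a defensin or defensin-like gene. The name of this probeset thus rests on sequence likeness, with the rice match placing it among the defensins. All values are signals on a log2 scale after normalization, where 1 unit is a factor of 2, and levels are compared for 1 probeset at a time because probesets differ in how strongly they hybridize.

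The trypsin inhibitor was at its highest in Norstar crowns that had not been cold treated. Winter Norstar had log2 signals of 9.22, 8.23 and 9.25 at 0 days. Spring Norstar had 9.61, 8.17 and 9.77 on the same day. In the Manitou background the signal was at the low end of the array at every duration. Winter Manitou had 3.50, 4.20 and 4.04 at 0 days, and spring Manitou had 3.93, 4.14 and 3.95. The 2 Norstar lines overlapped each other at 0 days, as did the 2 Manitou lines, and no Norstar sample came near a Manitou sample.

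**Figure D1:**
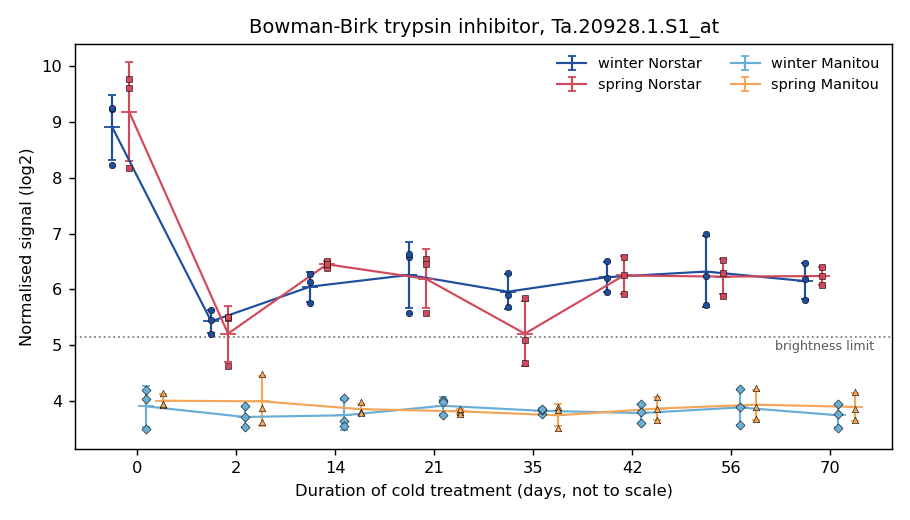
Normalised log2 signal of the Bowman-Birk trypsin inhibitor (Ta.20928.1.S1_at) against duration of cold treatment in winter Norstar, spring Norstar, winter Manitou and spring Manitou. Points are the 3 samples of each group, horizontal ticks and bars are the mean ± SD, and the dotted line marks the brightness limit of 5.15. Both Norstar lines stand near 9 at 0 days and between 5.21 and 6.45 afterwards, and both Manitou lines stay between 3.72 and 4.01.

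After 2 days of cold treatment the trypsin inhibitor signal was far lower in both Norstar lines. Winter Norstar had 5.63, 5.21 and 5.46 at 2 days, a mean of 5.43 ± 0.21, against 8.90 ± 0.58 at 0 days (SD, n = 3 each). The difference was -3.47 with a standard error of 0.29, or 11.1-fold lower at 2 days. Spring Norstar had 5.49, 5.50 and 4.63 at 2 days, a mean of 5.21 ± 0.50, against 9.18 ± 0.88 at 0 days (SD, n = 3 each). Here the difference was -3.97 with a standard error of 0.29, or 15.7-fold. Both standard errors were pooled over all 32 groups, Manitou included, with a residual SD of 0.365. The Norstar SDs at 0 days were above that, so 0.29 understates the spread in these comparisons. In each Norstar line every sample at 2 days lay below every sample at 0 days, an arrangement shown by 26.2% of all probesets tested in winter Norstar and 22.9% in spring Norstar. Ordered from the strongest decrease upwards, the trypsin inhibitor was number 16 of 31543 probesets in winter Norstar and number 11 in spring Norstar.

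The low sample of each Norstar line at 0 days was the one numbered replicate 2. It deviated from its group mean by -0.67 in winter Norstar and by -1.01 in spring Norstar. Arrays with the same number at 0 days deviated together across all probesets tested, with a mean correlation of 0.545 over 18 pairs of arrays, compared with mean correlations between 0.122 and 0.207 at the other 7 durations. Leaving out the 4 arrays numbered 2 at 0 days gave a difference of -3.81 in winter Norstar and -4.48 in spring Norstar. Because these arrays held the lowest sample of each Norstar line at 0 days, a larger decrease without them was bound to follow. Their part in the spread was not tested further.

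The trypsin inhibitor did not return to its starting level in Norstar during the cold treatment. From 2 to 70 days the 21 winter Norstar samples ran from 5.21 to 6.99 with a median of 6.13. The 21 spring Norstar samples of the same days ran from 4.63 to 6.58 with a median of 6.24. All 42 of them were below the lowest Norstar sample at 0 days, which was 8.17. Of all probesets tested, 2.32% had every cold-treated Norstar sample below every Norstar sample at 0 days. At 70 days winter Norstar was still 6.71-fold below 0 days (6.15 ± 0.32 against 8.90 ± 0.58), and spring Norstar was 7.67-fold below (6.24 ± 0.16 against 9.18 ± 0.88; SD, n = 3 each).

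Within the cold the 2-day group was the lowest in winter Norstar. At 14 days winter Norstar had 6.13, 5.75 and 6.27, above all 3 samples at 2 days, with a difference of 0.62 and a standard error of 0.29. At 14 days spring Norstar had 6.51, 6.39 and 6.46, also above its 2-day samples, with a difference of 1.24 and a standard error of 0.29. Of all probesets tested, 19.2% in winter Norstar and 21.0% in spring Norstar were arranged in this way. From 14 days on, neighbouring durations in the order of their means overlapped in winter Norstar. Spring Norstar departed from this at 35 days, when its samples were 5.85, 5.09 and 4.69 and its mean of 5.21 was as low as at 2 days. At 42 days spring Norstar had 6.58, 5.91 and 6.25, all 3 above those of 35 days, as in 6.22% of all probesets tested. The difference between 70 and 42 days was -0.07 in winter Norstar and -0.01 in spring Norstar, each with a standard error of 0.29, so that any change over the last weeks was below the spread between samples.

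In Norstar, winter and spring habit made little difference to the trypsin inhibitor averaged over 14 to 42 days. Over 14, 21, 35 and 42 days winter Norstar averaged 6.12 and spring Norstar 6.02, a difference of 0.10 with a standard error of 0.15 (12 samples each). Only at 14 days did the samples of the 2 Norstar lines not overlap, with winter Norstar at 6.05 ± 0.27 and spring Norstar at 6.45 ± 0.06 (SD, n = 3 each); 8.77% of all probesets tested had winter Norstar wholly below spring Norstar on that day. The largest difference of means was on day 35, at 0.75 with a standard error of 0.29, and there the samples overlapped. In Manitou the 14 to 42 day means were 3.82 in the winter line and 3.83 in the spring line. Both lie under the brightness limit of 5.15, so the presence or absence of a habit difference could not be read there.

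Genetic background separated the trypsin inhibitor completely. The 24 winter Norstar samples ran from 5.21 to 9.25, and the 24 winter Manitou samples from 3.50 to 4.22. The 24 spring Norstar samples ran from 4.63 to 9.77, and the 24 spring Manitou samples from 3.52 to 4.49. Among all probesets tested, 1.84% had every winter Norstar sample above every winter Manitou sample, and 1.68% had the same in the spring lines. The difference over all days was 2.59 with a standard error of 0.10 in the winter lines and 2.48 with a standard error of 0.10 in the spring lines. It was widest before cold treatment, at 4.99 in the winter lines and 5.17 in the spring lines, and narrowest at 2 days, at 1.71 and 1.21 with a standard error of 0.29 each. Every Manitou sample was under 5.15, the limit of brightness for testing, so these differences set Norstar against a signal not shown to be above background. With the Manitou mean put at that limit, the signal before cold treatment was at least 13.4-fold higher in winter Norstar than in winter Manitou and at least 16.3-fold higher in spring Norstar than in spring Manitou, and over all days at least 2.39-fold and 2.32-fold higher.

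Probesets entered the tests if their highest group mean was above 5.15, and all 48 Manitou samples of the trypsin inhibitor were below that level, compared with 3 of 48 Norstar samples. The 16 Manitou group means lay between the 17.9th and 23.6th percentile of all probesets on their arrays, whereas those of Norstar at 0 days lay at the 84.9th percentile in the winter line and the 87.3rd in the spring line. The difference between 2 and 0 days was -0.19 in winter Manitou and -0.01 in spring Manitou with a standard error of 0.29, and in neither line did any neighbouring durations, ordered by mean, separate. Present calls were not used here, so it was not established whether Manitou crowns held any of this transcript. Less transcript and a poorer match of the Manitou transcript to the probes cannot be told apart from these signals.

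Other probesets with the same cluster number did not show this profile. Ta.20928.2.A1_at had group means between 3.75 and 4.15 over all 32 groups, Ta.20928.3.S1_at between 4.50 and 5.09, and Ta.20928.3.S1_x_at between 5.71 and 6.34. They were picked for their number after the values were seen, and the first and second were under the brightness limit in every group. The range of 5.46 log2 units in the group means of Ta.20928.1.S1_at compared with at most 0.63 in these. No table used here says whether they read the same transcript.

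The amylase inhibitor-like transcript was strongly expressed in all 4 lines before cold treatment. At 0 days winter Norstar had 11.97, 11.70 and 11.76. Spring Norstar had 11.92, 10.82 and 11.88. Winter Manitou had 12.14, 11.82 and 12.09, and spring Manitou had 12.04, 11.70 and 12.03. Neighbouring lines overlapped, and the group means stood between the 97.6th and 98.4th percentile of all probesets on the array. The lowest sample of each line was again the one numbered replicate 2, most of all in spring Norstar, where it deviated from the group mean by -0.72.

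**Figure D2:**
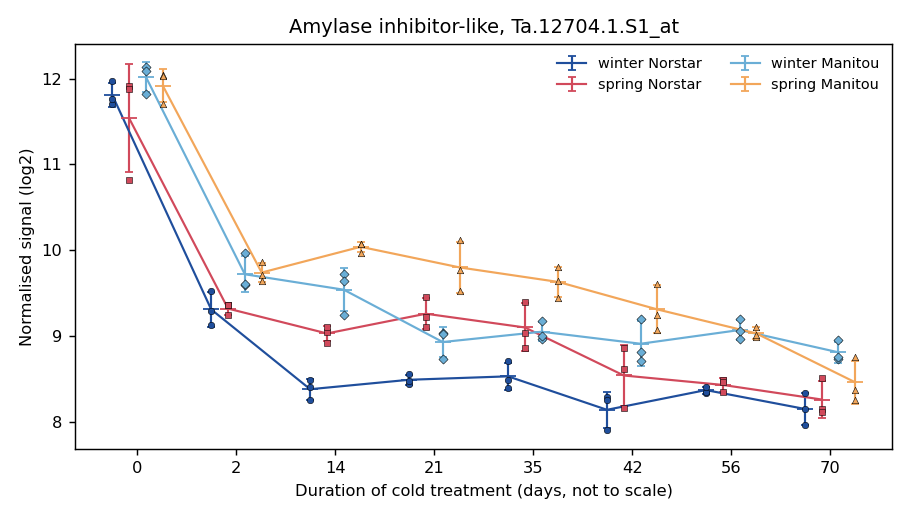
Normalised log2 signal of the amylase inhibitor-like probeset (Ta.12704.1.S1_at) against duration of cold treatment in winter Norstar, spring Norstar, winter Manitou and spring Manitou. Points are the 3 samples of each group, and ticks and bars are the mean ± SD. All 4 lines start between 11.54 and 12.02 and stand between 9.31 and 9.74 at 2 days, and at 14, 21 and 35 days each winter line lies below the spring line of its background.

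Within 2 days of cold treatment the amylase inhibitor-like signal was about 5-fold lower in all 4 lines. Winter Norstar had 9.29, 9.52 and 9.13 at 2 days, a difference from 0 days of -2.50 with a standard error of 0.17, or 5.64-fold. Spring Norstar had 9.24, 9.36 and 9.36, a difference of -2.22, or 4.67-fold. Winter Manitou had 9.60, 9.97 and 9.61, a difference of -2.29, or 4.90-fold, and spring Manitou had 9.86, 9.71 and 9.64, a difference of -2.19, or 4.55-fold, all with the same standard error. It too was pooled over all groups, with a residual SD of 0.215. Spring Norstar at 0 days had an SD of 0.63, so the pooled value understates the spread there. In every line the samples of 2 days lay wholly below those of 0 days, which also held for 26.2% and 22.9% of all probesets tested in winter and spring Norstar and for 23.2% and 22.7% in winter and spring Manitou. Counted from the strongest decrease, the probeset was number 58 and 123 of 31543 in winter and spring Norstar and number 152 and 157 in winter and spring Manitou. The decrease in the 2 Norstar lines differed from that in the 2 Manitou lines by -0.12 with a standard error of 0.17, less than the spread between samples. Without the 4 arrays numbered 2 at 0 days the difference was -2.55 and -2.58 in winter and spring Norstar, and -2.39 and -2.30 in winter and spring Manitou. These arrays held the lowest 0-day sample of every line, so a larger decrease without them was bound to follow.

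After the first 2 days the winter and spring lines of each background parted. Winter Norstar had 8.25, 8.49 and 8.41 at 14 days, a further difference from 2 days of -0.93 with a standard error of 0.17. Spring Norstar had 9.05, 8.92 and 9.11, a difference of -0.29, and winter Manitou had 9.25, 9.72 and 9.64, a difference of -0.19 with overlapping samples. Spring Manitou had 10.07, 10.07 and 9.97, and there the difference was 0.30, with all 3 samples above those of 2 days. Of all probesets tested, 19.7% had every sample lower at 14 than at 2 days in winter Norstar and 18.8% in spring Norstar, and 20.8% had every sample higher in spring Manitou. At 14 days the 4 lines were fully separated from each other, with spring Manitou (10.04 ± 0.06) above winter Manitou (9.54 ± 0.25), then spring Norstar (9.03 ± 0.09) and winter Norstar (8.38 ± 0.12; SD, n = 3 each), an order without overlap that 0.418% of all probesets tested shared.

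The winter lines were below the spring lines of their own background in the middle of the time series, by nearly the same amount in Norstar and in Manitou. At 14 days the winter minus spring difference was -0.64 in Norstar and -0.50 in Manitou. At 21 days, when winter Norstar had 8.44, 8.48 and 8.56 and spring Norstar 9.46, 9.10 and 9.22, it was -0.76, and for winter Manitou with 9.04, 9.02 and 8.73 and spring Manitou with 10.12, 9.77 and 9.52 it was -0.87. At 35 days winter Norstar had 8.71, 8.39 and 8.49 and spring Norstar 9.04, 9.40 and 8.86, a difference of -0.57. On that day winter Manitou had 9.17, 8.97 and 9.00 and spring Manitou 9.80, 9.64 and 9.44, a difference of -0.58. Each of these has a standard error of 0.17, and in all 6 comparisons no winter sample reached a spring sample. The shares of all probesets tested with the same arrangement were 8.77%, 14.2% and 19.4% in Norstar and 9.08%, 11.2% and 10.3% in Manitou at 14, 21 and 35 days.

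The gap between winter and spring lines was smaller at 42 than at 35 days and had closed by 56 days. At 42 days winter Norstar had 8.29, 7.90 and 8.25 and spring Norstar 8.86, 8.61 and 8.16, and winter Manitou had 9.20, 8.71 and 8.81 and spring Manitou 9.61, 9.07 and 9.25. The difference was -0.40 in both backgrounds, and the samples overlapped in both. At 56 days the difference was -0.07 in Norstar and 0.04 in Manitou. At 70 days it was -0.11 in Norstar, where winter Norstar had 7.96, 8.34 and 8.15 and spring Norstar 8.15, 8.11 and 8.51. In Manitou it was 0.35 on that day, where winter Manitou had 8.73, 8.95 and 8.75 and spring Manitou 8.75, 8.26 and 8.37, the only duration past 2 days with a winter mean clearly above a spring mean, though the samples met at 8.75. Over 14, 21, 35 and 42 days together winter Norstar averaged 8.39 and spring Norstar 8.98, a difference of -0.60 with a standard error of 0.086, and winter Manitou averaged 9.11 and spring Manitou 9.69, a difference of -0.59 with the same standard error (12 samples each).

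**Figure D3:**
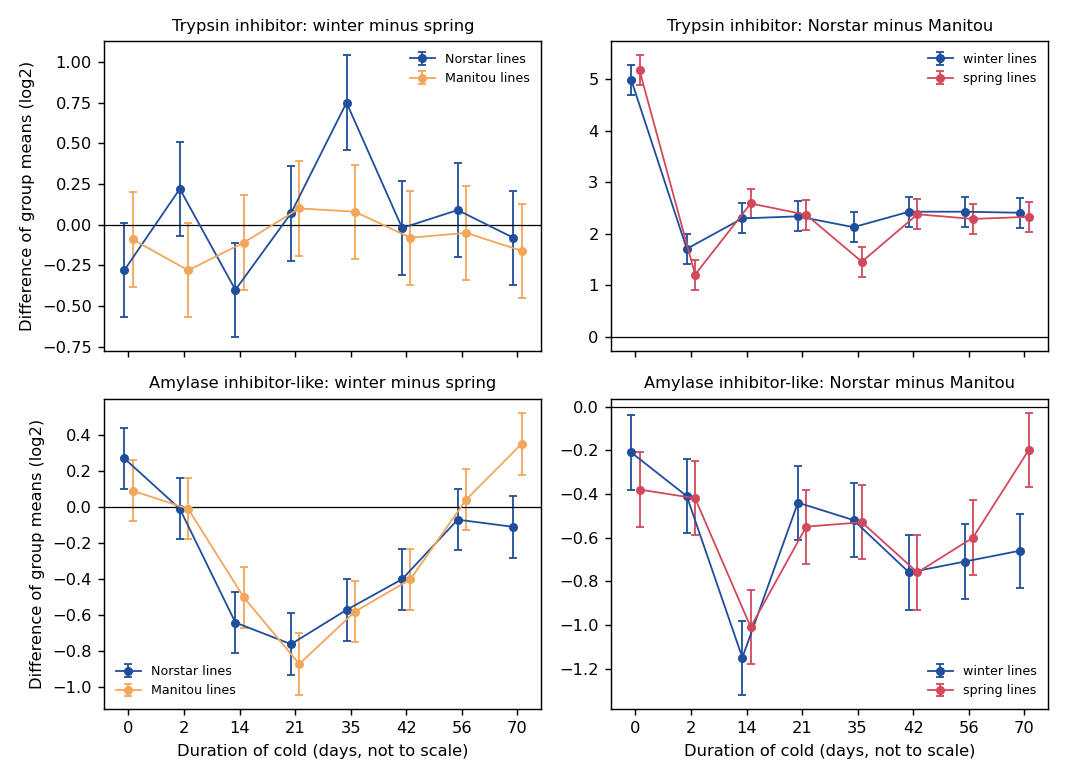
Differences of group means (log2) at each duration for the trypsin inhibitor (top) and the amylase inhibitor-like probeset (bottom), winter minus spring within each background on the left and Norstar minus Manitou within each habit on the right. Bars are standard errors of the 32-group fit, which are 0.29 for the trypsin inhibitor and 0.17 for the amylase inhibitor-like probeset. The winter minus spring difference of the amylase inhibitor-like probeset reaches -0.76 in Norstar and -0.87 in Manitou at 21 days, and the Norstar minus Manitou difference of the trypsin inhibitor is about 5 at 0 days and at least 1.21 later.

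The amylase inhibitor-like signal was lower in Norstar than in Manitou crowns of the same habit, the opposite of the trypsin inhibitor. Over all days the difference was -0.61 with a standard error of 0.061 in the winter lines (8.90 in winter Norstar against 9.51 in winter Manitou) and -0.56 with the same standard error in the spring lines (9.19 in spring Norstar against 9.74 in spring Manitou; 24 samples each). It was widest at 14 days, at -1.15 in the winter lines and -1.01 in the spring lines with a standard error of 0.17. Samples of the winter lines were separate at every duration but 0 days. Those of the spring lines were separate at every duration but 0 and 70 days. Of all probesets tested, winter Norstar samples lay wholly below those of winter Manitou in 20.4% at 2 days, 17.9% at 14 days, 21.0% at 21 days, 22.7% at 35 days, 16.7% at 42 days, 20.1% at 56 days and 17.7% at 70 days. Spring Norstar samples lay wholly below those of spring Manitou in 16.3% at 2 days, 15.8% at 14 days, 20.2% at 21 days, 17.5% at 35 days, 12.3% at 42 days and 16.6% at 56 days.

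The lowest group mean of the amylase inhibitor-like transcript came late, but only in spring Manitou was that group separate from all earlier groups in cold. The samples of the lowest group overlapped those of 14 days in winter Norstar, those of 21 days in winter Manitou and those of 42 and 56 days in spring Norstar. The lowest group mean was at 42 days in winter Norstar (8.14 ± 0.21) and at 70 days in spring Norstar (8.26 ± 0.22), winter Manitou (8.81 ± 0.12) and spring Manitou (8.46 ± 0.25; SD, n = 3 each). The whole range of group means was 3.67 and 3.28 in winter and spring Norstar, and 3.21 and 3.46 in winter and spring Manitou, between 9.26-fold and 12.7-fold. Between 70 and 42 days the difference was 0.01 and -0.29 in winter and spring Norstar, and -0.10 and -0.85 in winter and spring Manitou, each with a standard error of 0.17. Only in spring Manitou did the 70-day samples lie wholly below those of 42 days, as did 20.6% of all probesets tested.

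The 2 transcripts divided their variation in different ways. For the trypsin inhibitor, line took 70.7% of the sum of squares over the 96 arrays, duration 13.3%, their interaction 12.1% and the spread within groups 3.92%. For the amylase inhibitor-like transcript, duration took 84.7%, line 8.70%, the interaction 3.98% and the spread within groups 2.63%. Within the 48 Norstar arrays duration was the main part for both, at 86.9% for the trypsin inhibitor and 92.8% for the amylase inhibitor-like transcript. The residual standard deviation was 0.365 for the trypsin inhibitor and 0.215 for the amylase inhibitor-like transcript, both above the median of 0.149 over all probesets tested. Across the 32 group means the 2 profiles had a Pearson correlation of 0.062. Over the 16 Norstar group means it was 0.786, but over the 14 of these in cold it was -0.627, so that the positive value rests on the 0-day groups.

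Probesets most like each member were looked for by Pearson correlation over the 32 group means among the 31543 tested. Nearest to the trypsin inhibitor were Ta.22444.1.S1_at (r = 0.961), Ta.3480.1.S1_at (0.952), Ta.21753.1.S1_at (0.951), Ta.10426.1.A1_at (0.948) and Ta.17036.1.S1_at (0.947). These 5 have no description in the tables used here. They share the step between backgrounds and the 0-day maximum in Norstar. For Ta.21753.1.S1_at the mean at 0 days was 8.10 in winter Norstar and 8.60 in spring Norstar, against 5.09 in each Manitou line. Nearest to the amylase inhibitor-like transcript were TaAffx.2456.1.S1_at (0.946), Ta.29372.1.S1_at (0.943), Ta.4586.1.A1_at (0.939), Ta.15136.1.S1_at (0.938) and Ta.12529.1.S1_at (0.937), of which Ta.4586.1.A1_at is described, through its rice match, as a thaumatin. Thaumatin-like proteins include a family of plant defence proteins. The mean of Ta.4586.1.A1_at at 2 days was 10.13 in both Norstar lines, against 12.20 and 12.14 at 0 days in winter and spring Norstar. At 2 days it was 10.24 and 10.28 in winter and spring Manitou, against 12.54 and 12.35 at 0 days. The 32 means share their arrays and the step at 0 days, and the correlations are given as a description only.

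Related inhibitors were taken from the study's annotated list, of which a part was held here, and comprised 21 probesets besides the members. They were 3 trypsin inhibitors, 3 amylase inhibitor-like, 5 defensins (counting a proteinase inhibitor with a rice defensin match), 3 of the inhibitor I family, 3 cystatins and 4 inhibitors of cell wall enzymes, and 20 of them were bright enough to be tested. The named ones carry a letter within their family. Another 7 probesets for serine proteases, the enzymes that trypsin inhibitors block, were added for comparison. The study picked this list on the same arrays for a response to duration that differs among lines, so that counts of calls in it are not independent evidence. A probeset was called when limma's Benjamini-Hochberg adjusted p was under 0.01 and the difference at least 2-fold. Some counts below use an unadjusted limma p under 0.05 instead. The share of all probesets tested at that limit is not given, so these counts describe the list only.

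At 2 days of cold 4 of the 5 defensins were called higher in each line, whereas no trypsin inhibitor or inhibitor I probeset was called higher in any. In winter Norstar 5 of the 20 inhibitors were called higher at 2 than at 0 days and 1 lower, amylase inhibitor-like B, where 2.03% and 2.91% of all probesets tested were called in these directions. At -1.03 ± 0.31 (± SE, limma adjusted p = 0.0057) that call was lost without replicate 2 (-1.0), without replicate 3 (-1.03) and without the 4 arrays numbered 2 at 0 days (-0.84). In spring Norstar 5 were higher and 3 lower (2.42% and 2.84% of all probesets), and in each Manitou line 5 and 5 (2.76% and 3.61% in the winter line, 2.46% and 3.35% in the spring line). The median difference over the 20 was -0.16 and -0.33 in winter and spring Norstar and -0.50 in both Manitou lines, compared with 0.02 to 0.04 over all probesets tested.

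**Figure D4:**
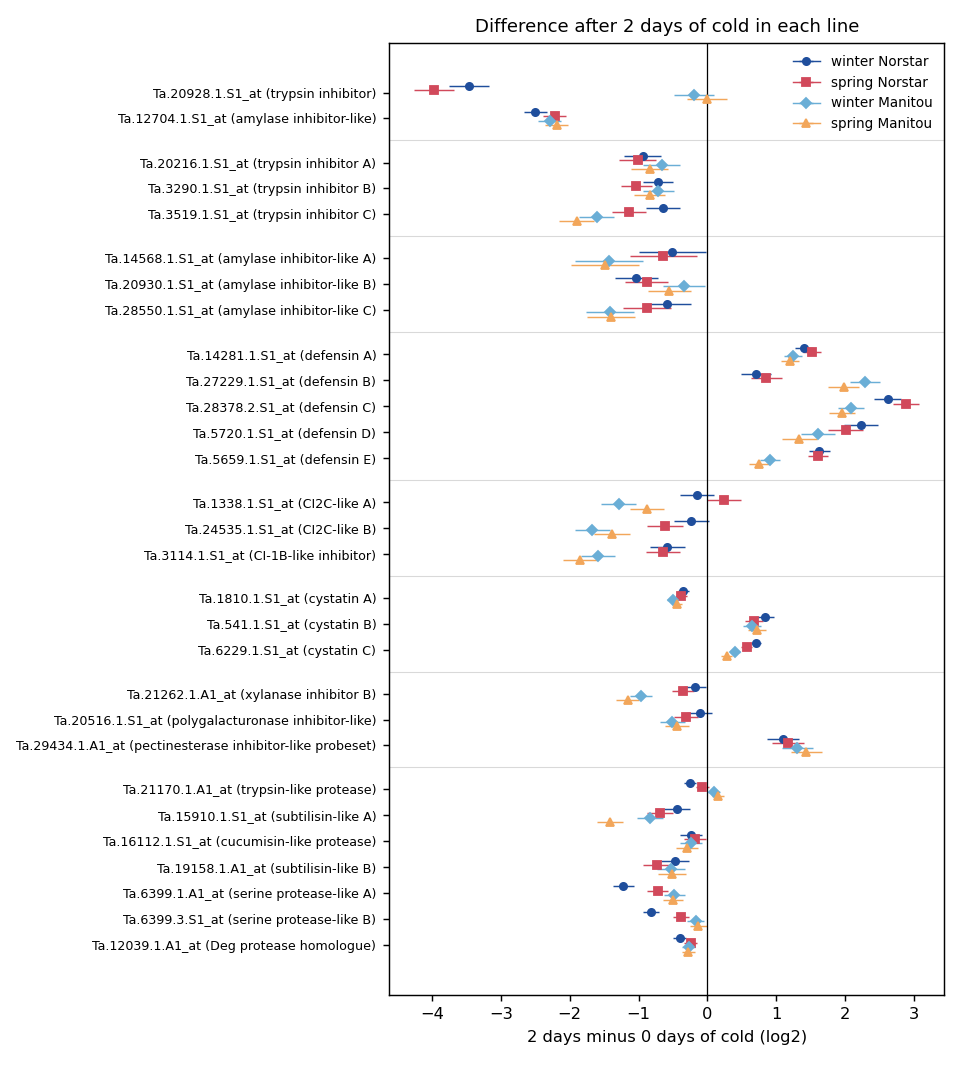
Difference between 2 and 0 days of cold treatment (log2) in winter Norstar, spring Norstar, winter Manitou and spring Manitou for the trypsin inhibitor and amylase inhibitor-like probesets (top rows), 20 related inhibitors and 7 serine proteases. Points are differences of group means and bars are standard errors of the 32-group fit. The trypsin inhibitor Ta.20928.1.S1_at has the most negative values, -3.47 in winter Norstar and -3.97 in spring Norstar, and the 5 defensins lie to the right of 0 in all 4 lines.

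In the Norstar lines the 3 other trypsin inhibitors had smaller differences at 2 days than Ta.20928.1.S1_at. Trypsin inhibitor C was called lower at 2 days in 3 lines, with differences of -1.14 ± 0.25 in spring Norstar and of -1.61 ± 0.25 and -1.90 ± 0.25 in winter and spring Manitou (± SE, limma adjusted p = 0.00015, 1.9e-07 and 2.4e-09), and it differed by -0.64 in winter Norstar (limma adjusted p = 0.034). Trypsin inhibitor B was called lower in spring Norstar, at -1.03, and trypsin inhibitor A likewise, at -1.01. These lie at the 2-fold limit. Without replicate 1 all 3 calls in spring Norstar were lost, with -0.93 for trypsin inhibitor C, -0.94 for trypsin inhibitor B and -0.92 for trypsin inhibitor A, the last of which was also lost without replicate 3 (-0.95). With arrays centred on the 75th percentile both B and A were lost there (-0.99 and -0.97), and with median-centred arrays A alone (-1.0). Before cold treatment trypsin inhibitor C stood at 8.77 ± 0.43 in winter Norstar and 9.27 ± 0.38 in spring Norstar, compared with 10.70 ± 0.43 in winter Manitou and 11.26 ± 0.36 in spring Manitou (SD, n = 3 each). Its difference between backgrounds was thus opposite to that of Ta.20928.1.S1_at.

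Of the defensins, A, C and D were called higher at 2 days in all 4 lines. Defensin C differed by 2.62 and 2.89 in winter and spring Norstar and 2.09 and 1.96 in winter and spring Manitou (SE 0.19, limma adjusted p between 3.3e-21 and 3.5e-14). Defensin E, a proteinase inhibitor with a rice defensin match, was called in the Norstar lines, at 1.63 and 1.61, and defensin B in the Manitou lines, at 2.29 and 1.98. The amylase inhibitor-like member, which shares the rice defensin match, was lower at 2 days in the same arrays. A probeset with a pectinesterase inhibitor domain was also called higher in all 4 lines, by between 1.10 and 1.44. Pectinesterase inhibitors act on an enzyme that modifies cell wall pectin.

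The inhibitor I probesets resemble the chymotrypsin and subtilisin inhibitors of barley grain. CI2C-like B and the CI-1B-like inhibitor were lower at 2 days in both Manitou lines, the CI-1B-like inhibitor with differences of -1.59 in winter Manitou and -1.85 in spring Manitou (SE 0.25, limma adjusted p = 1.6e-07 and 3.5e-09). CI2C-like A was called lower in winter Manitou, at -1.29, but without the 4 arrays numbered 2 at 0 days it was at -0.98, short of the limit. None of the 3 was called in a Norstar line by limma, where 1 in winter Norstar and 2 in spring Norstar had an unadjusted p under 0.05. CI2C-like A was near the low end of the scale in Norstar, with means between 3.63 and 3.96 in the winter line and between 3.86 and 4.59 in the spring line, a pattern of backgrounds opposite to that of Ta.20928.1.S1_at. None of the 3 cystatins, which inhibit cysteine proteases, passed both limits (adjusted p and fold) in any of the 8 comparisons made with limma, although at 2 days 2 were higher and 1 lower in each line at an unadjusted p under 0.05. The unadjusted counts for both families lack a share of all probesets for comparison.

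Each of the other probesets with an amylase inhibitor-like match had a profile of its own. In winter Norstar amylase inhibitor-like A was 6.37 ± 0.73 at 0 days, 3.94 ± 0.27 at 35 days and 6.17 ± 1.09 at 70 days. In spring Manitou it was 11.85 ± 0.13, 12.41 ± 0.11 and 12.00 ± 0.07 on these days (SD, n = 3 each). Within winter Manitou, amylase inhibitor-like C was lowest at 14 to 42 days, with means between 6.83 and 7.23, and reached 9.71 ± 1.06 there at 70 days. At 2 days amylase inhibitor-like C was called lower in both Manitou lines, at -1.41 in the winter line and -1.40 in the spring line (SE 0.35, limma adjusted p = 0.00068 and 0.00076), the second call being lost without replicate 1 (-1.20). Amylase inhibitor-like B stood between 5.71 and 6.75 at 70 days over the 4 lines, against 10.01 to 10.60 at 0 days. The member Ta.12704.1.S1_at had the strongest difference at 2 days of the 4 in each line.

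**Figure D5:**
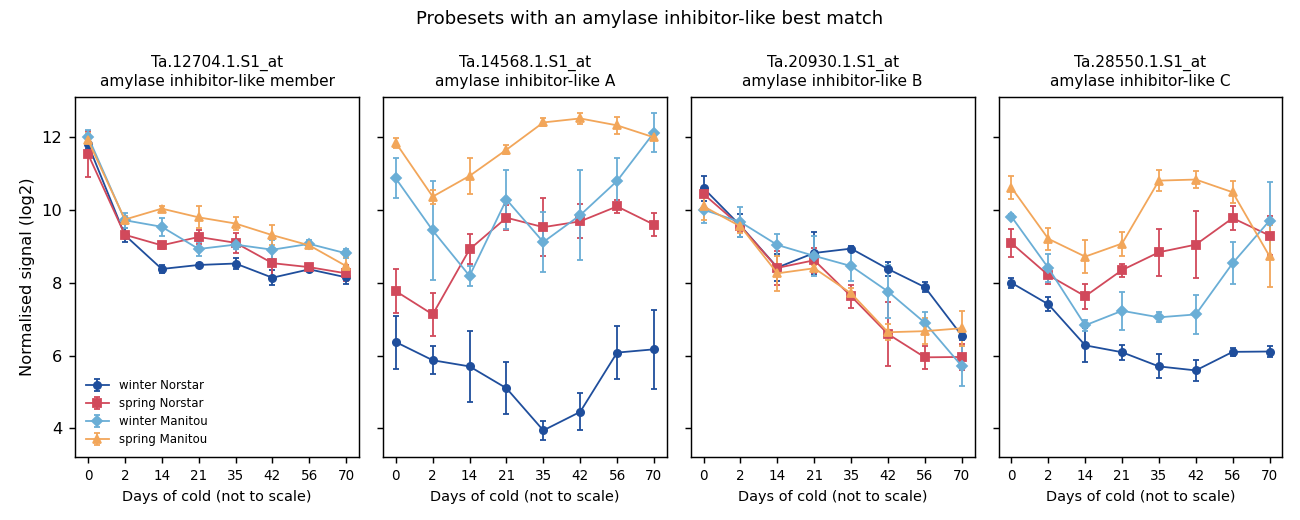
Group means ± SD (log2, n = 3) against days of cold treatment for the 4 probesets with an amylase inhibitor-like match in winter Norstar, spring Norstar, winter Manitou and spring Manitou. At 35 days amylase inhibitor-like A stands at 3.94 and 9.53 in winter and spring Norstar and at 9.12 and 12.41 in winter and spring Manitou, while Ta.12704.1.S1_at stands between 8.53 and 9.63.

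At 14 to 42 days the related trypsin inhibitors and amylase inhibitor-like probesets that were called were all lower in the winter line. In Norstar 3 of the 20 were called higher in the winter line and 6 lower, where 0.472% and 0.675% of all probesets tested were called. In Manitou 2 were higher and 6 lower, where 0.190% and 0.250% of all probesets were called. Counted at an unadjusted p under 0.05, whatever the size, 13 were higher and 7 lower in winter than in spring Norstar, with a median difference of 0.35 over the 20, and 9 were higher and 7 lower in winter than in spring Manitou, with a median of 0.13. The median over all probesets tested was 0 in both. No share of all probesets stands beside the unadjusted counts, which describe the list only. Amylase inhibitor-like A differed by -4.68 ± 0.25 in Norstar (5.5e-26) and -2.52 ± 0.25 in Manitou (6.1e-13), and amylase inhibitor-like C differed by -2.55 ± 0.17 in Norstar (4.4e-20) and -2.80 ± 0.17 in Manitou (1.6e-21; ± SE, limma adjusted p in brackets). In winter Norstar amylase inhibitor-like A was under the limit of brightness at 21, 35 and 42 days, with means of 5.10, 3.94 and 4.45. Trypsin inhibitors B and C were also lower in the winter line of both backgrounds, with differences between -1.42 and -1.10. Higher in the winter lines of both backgrounds were defensin B, by 1.03 in Norstar and 1.68 in Manitou, and the pectinesterase inhibitor-like probeset, by 1.35 in Norstar and 1.06 in Manitou. Of the calls between habits, that of defensin B in Norstar was lost without replicate 2 (0.91), and those of the CI-1B-like inhibitor in Norstar and of the pectinesterase inhibitor-like probeset in Manitou without replicate 1 (-0.92 and 0.99). The amylase inhibitor-like member, at -0.60 and -0.59, had the same sign as amylase inhibitor-like A and C and a smaller size. Amylase inhibitor-like B went the other way. It was higher in the winter line of both backgrounds at an unadjusted limma p under 0.05, though not called. Trypsin inhibitor A was likewise higher in winter than in spring Norstar.

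Between backgrounds over all days related inhibitors were called in both directions. Of the 20, 3 were called higher in winter Norstar than in winter Manitou and 6 lower (2.17% and 1.70% of all probesets tested), and 2 were higher in spring Norstar than in spring Manitou and 6 lower (1.96% and 1.39%). Counted at an unadjusted p under 0.05, whatever the size, 12 were higher and 8 lower in winter Norstar, with a median difference of 0.31 over the 20, and 9 were higher and 9 lower in spring Norstar, with a median of -0.04. The medians over all probesets tested were -0.02 and -0.01. Here too the unadjusted counts have no share of all probesets beside them. The 6 lower in Norstar were, in each habit, trypsin inhibitors B and C, amylase inhibitor-like A and C, and CI2C-like A and B. The call of amylase inhibitor-like C in the spring lines was lost without replicate 1 (-0.96), without replicate 3 (-0.99) and without the 4 arrays numbered 2 at 0 days (-1.0), and the higher call of the pectinesterase inhibitor-like probeset there without replicate 2 (0.98). CI2C-like A differed by -6.56 ± 0.09 in the winter lines and -7.08 ± 0.09 in the spring lines (± SE, limma adjusted p = 3.5e-63 and 3.0e-65). Its Norstar means, 3.81 in the winter line and 4.26 in the spring line, were under the limit of brightness. With them put at the limit, its signal was at least 37.3-fold lower in winter Norstar than in winter Manitou and at least 73.0-fold lower in spring Norstar than in spring Manitou. No trypsin inhibitor of the list was called higher in Norstar by limma, although trypsin inhibitor A was higher there by 0.96 in the winter lines (limma adjusted p = 6.6e-14) and by 0.29 in the spring lines (limma adjusted p = 0.011). These comparisons use the same arrays as those between habits.

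Few of the serine proteases passed both limits. At 2 days 1 of the 7 was called lower in winter Norstar, serine protease-like A, at -1.22 ± 0.15 (± SE, limma adjusted p = 4.1e-10), and 1 in spring Manitou, subtilisin-like A, at -1.41 ± 0.19 (2.3e-09), where 2.91% and 3.35% of all probesets tested were called lower. None was called by limma in spring Norstar and winter Manitou, where 5 and 4 were lower at an unadjusted p under 0.05, a limit without a share of all probesets for comparison. The median difference over the 7 was -0.44 and -0.38 in winter and spring Norstar and -0.27 and -0.30 in winter and spring Manitou. Subtilisin-like A was also lower in winter than in spring Manitou at 14 to 42 days, at -1.07 (-0.94 without replicate 1, when the call was lost), and subtilisin-like B was lower in Norstar than in Manitou, at -1.25 in the winter lines and -1.10 in the spring lines.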

How the data were processed

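Crown RNA of 4 lines at 8 durations was hybridized to 96 Affymetrix arrays, 3 per group. The authors extracted probe signals and applied RMA in GeneSpring (background correction, quantile normalization, summarization of probes), so the deposited values are normalised log2 signals between 1.92 and 14.73, with array medians between 5.66 and 5.78. They were used without further scaling, and quantile normalization removes any overall difference between arrays. Of 61290 probesets, 111 controls were left out. The rest were ranked by highest group mean and kept down to the number the study gives as present, which set a limit of 5.15, and those with the suffix _x_at or _s_at, which can read several genes, were set aside, leaving 31543. Present calls and any file of raw signals were not used here. No genome was used, and neither member is in the platform's gene table.

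Group means of the 32 groups were fitted with limma (version 3.58.1, R 4.3.3; 64 residual degrees of freedom), p adjusted by Benjamini-Hochberg over all probesets tested and called at under 0.01 with at least a 2-fold difference. Standard errors are moderated. Sums of squares followed the study's model of genotype, time and interaction. The scripts were tested on simulated data. Named probesets are the members, the related list and the 5 most correlated with each member. The members and lists were chosen with earlier results of these data known. No marker list for crown tissue was used. Samples are labelled biological replicates, and precision rests on 3 arrays a group. Alternatives changed centring, weights, the filter, moderation, the replicate block and the samples kept.

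The lettered probesets were trypsin inhibitors A (Ta.20216.1.S1_at), B (Ta.3290.1.S1_at) and C (Ta.3519.1.S1_at), amylase inhibitor-like A (Ta.14568.1.S1_at), B (Ta.20930.1.S1_at) and C (Ta.28550.1.S1_at), defensins A (Ta.14281.1.S1_at), B (Ta.27229.1.S1_at), C (Ta.28378.2.S1_at), D (Ta.5720.1.S1_at) and E (Ta.5659.1.S1_at), CI2C-like A (Ta.1338.1.S1_at) and B (Ta.24535.1.S1_at), subtilisin-like A (Ta.15910.1.S1_at) and B (Ta.19158.1.A1_at), and serine protease-like A (Ta.6399.1.A1_at). The CI-1B-like inhibitor was Ta.3114.1.S1_at and the pectinesterase inhibitor-like probeset Ta.29434.1.A1_at.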

Additional observations from a re-analysis of the deposited data

Results flagged for a closer look

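The effect of 2 days of cold differed between backgrounds (Norstar minus Manitou, limma test of the difference, adjusted p under 0.01 and at least 2-fold) for 4 related inhibitors. The value was -1.35 ± 0.22 for defensin B (± SE, adjusted p = 1.4e-05), 1.14 ± 0.25 for CI2C-like A (0.0034), 1.10 ± 0.26 for CI2C-like B (0.0082) and 1.11 ± 0.25 for the CI-1B-like inhibitor (0.0031). CI2C-like A was near the low end of the scale in Norstar, as the trypsin inhibitor was in Manitou.

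The winter minus spring difference over 14 to 42 days differed between backgrounds for 3 of them by the same test. It was more negative in Norstar than in Manitou by -2.16 ± 0.35 for amylase inhibitor-like A (limma adjusted p = 9.5e-06), and the difference was 1.04 ± 0.18 for defensin D (3.7e-05) and 1.21 ± 0.18 for CI2C-like A (1.7e-06). Amylase inhibitor-like A was under the limit of brightness in winter Norstar at 21, 35 and 42 days. CI2C-like A was under that limit in both Norstar lines at every duration. Its value of 1.21 thus sets a Norstar signal not shown to be above background against the difference in Manitou.

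For the amylase inhibitor-like member the samples of 14 days lay wholly below those of 2 days in winter Norstar (-0.93) and spring Norstar (-0.29), and wholly above them in spring Manitou (0.30). This difference between lines was not tested.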

How the results depend on the processing

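Under 10 alternatives each, 308 of 320 values of the members' differences stayed within 1 residual standard deviation of the reported value, and 29 of the 320 had another sign (reported differences of at most 0.19 in size). Counts of called inhibitors were checked under more alternatives, and 198 of 208 stayed within 1.5 times. Of 946 checks of single calls 22 were lost and none was reversed. Arrays labelled with one replicate number deviated together most at 0 days, where every same-number correlation was at least 0.321. On the other days the mean was between 0.122 and 0.207, the lowest between -0.121 and -0.0316, and the highest up to 0.625. In the fit with a replicate block no call was lost. The members' differences (-3.47 and -3.97 for the trypsin inhibitor at 2 days in winter and spring Norstar, SE 0.27) could not change there. Each group holds every replicate number, so only the standard errors could move. The values of this fit among the 320 were thus fixed in advance. Treating arrays that share a day and a number as a random block, chosen after seeing the data, also lost no call. Each such block holds 1 array of each line, so the members' differences were fixed in advance there too. Leaving out the 4 arrays numbered 2 at 0 days likewise could not move any difference that does not use 0 days.

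The 2-day difference of the trypsin inhibitor in spring Norstar ran between -4.62 and -3.39 when 1 replicate was left out and was -4.48 without the 4 arrays numbered 2 at 0 days (chosen after seeing the data). That of the amylase inhibitor-like transcript ran between -2.61 and -1.99 in spring Norstar and between -2.51 and -2.17 in winter Manitou, and in spring Norstar was -2.58 without those arrays and -2.52 with the median of 3 samples. With 1 replicate left out, its 42 minus 2 day difference ran between -1.31 and -0.94 in winter Norstar and between -1.03 and -0.60 in winter Manitou, and its 70 minus 42 day difference between -0.21 and 0.17 in winter Norstar and between -0.60 and -0.07 in spring Norstar.

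Inhibitors called lower at 2 days numbered 0 in winter Norstar with 75th percentile centring, with array quality weights and without the 4 arrays, and between 0 and 2 with 1 replicate left out. In spring Norstar they numbered 1 with 75th percentile centring and between 0 and 3 with 1 replicate left out. Those called higher in winter than in spring Manitou, and in spring Norstar than in spring Manitou, each numbered between 1 and 2 with 1 replicate left out. These calls lie at the 2-fold limit. Over the 28 groups in cold, the correlations with the amylase inhibitor-like transcript were between 0.683 and 0.848.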
